A study of Canis lupus familiaris with 62 samples.

Results

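The genes described here are 370 small single-exon genes that were counted in many of the tumours. They were chosen from the 30951 genes of the count table by 3 conditions: a place on chromosomes 1 to 38, a single exon of 250 bases or less, and at least 1 count in at least 31 of the 62 libraries. The first pair of conditions held for 2918 genes, of which the other 2548 were counted in fewer than 31 libraries. At the length limit, the longest genes inside were 4 of 249 bases (mean level 0.798 to 3.08 CPM, counts per 1000000 counts of the library) and the shortest detected genes outside were 3 of 252 bases (0.618 to 1.86 CPM). At the detection limit, 13 genes had counts in exactly 31 libraries (median of their mean levels 0.619 CPM) and 10 genes just missed it with 30 (0.566 CPM).

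Genes of this size and with no intron include several noncoding kinds. Small nuclear RNAs form the core of the spliceosome. Small nucleolar RNAs guide chemical modification of ribosomal and spliceosomal RNA, and precursors of microRNAs yield RNAs that repress messenger RNAs. Many small nucleolar RNA and microRNA genes lie in introns of longer host genes and are cut out of the host's transcript, and others lie in clusters transcribed as one unit. The annotation of the count table gives neither names nor classes, and none of the 370 identifiers (0) was found in the name table used here. The genes are therefore given by identifier or by position on CanFam3.1. Neither their RNA class nor whether all of them are noncoding was determined. Their sequences are not printed, because no CanFam3.1 sequence was used here.

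The 62 libraries, 1 per dog (31 female and 31 male, 7 of them intact), came from meningiomas, which grow from the coverings of the brain, and were made from total RNA of paraffin-archived biopsies or post-mortem tissue. The treatment label gave 27 untreated dogs, 7 given a steroid, in most cases together with an anti-epileptic drug, 3 on an anti-epileptic drug alone, 3 labelled RT (read as radiotherapy), 13 labelled Sx (read as surgery) and 9 labelled with both, SxRT. The tumours were spontaneous, the dogs were of many breeds, and no healthy tissue was analysed here. Each library title carries a letter, N or S, and then a number between 11 and 22; what they stand for is not given in the labels. The letter S marks 21 of the 22 surgical dogs and no other dog, Sx replicate 1 being the exception, so surgery, the letter and whatever the letter stands for cannot be told apart. Library totals ran from 1967061 to 12063982 counts (median 4190135), and mitochondrial genes took 3.00% to 46.7% of them. In these bulk samples, fewer cells of a type and less RNA per cell cannot be told apart.

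The small genes took very little of each library, and a few of them held most of it. Their share of all counts had a median of 0.173% over the 62 libraries. The lowest share, 0.0834% (95% Wilson interval 0.0815% to 0.0854%), was in untreated replicate 12, and the highest, 0.246% (0.241% to 0.252%), was in antiepileptic replicate 2. These intervals cover counting error only, and both reads of a pair were counted, so they are too narrow. The most abundant gene alone held 6.71% of the counts of the 370, the first 6 held 28.3%, the first 20 held 54.4% and the first 100 held 78.9%. At the other end, 233 genes had a mean level under 2 CPM, and 134 had 3 counts or fewer in the median library. Only 27 were counted in all 62 libraries. Between 142 and 346 of the 370 had a count in a given library. A count of 3 corresponded to 0.249 CPM in the deepest library and 1.53 CPM in the shallowest, so for most of these genes 1 library alone says little about the level.

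The 6 most abundant genes were counted in every library. The first, on chromosome 12 (69985106 to 69985309, plus strand, 204 bases, outside other genes), ran from 14.3 CPM to 609.5 CPM with a median of 107.2 CPM. The second, on chromosome 15 (37997514 to 37997760, plus strand, 247 bases), lies in an intron of ENSCAFG00000006545 on the same strand, 70 bases from the nearest exon of any other gene. It ran from 41.1 CPM to 252.9 CPM with a median of 97.3 CPM. Both are among the longer genes of the set. ENSCAFG00000041666 (chromosome 5, 47887808 to 47888041) had a mean level of 72.98 ± 34.8 CPM (SD, n = 62). ENSCAFG00000048401 (chromosome 18, 51707336 to 51707474) had 67.6 ± 31.4 CPM. These genes and ENSCAFG00000003361 (chromosome 10, 68897632 to 68897862), at 55.6 ± 28.9 CPM, had an SD of at most 0.519 of the mean. ENSCAFG00000047167 (chromosome 4, 22744954 to 22745139) varied more: its SD of 61.2 CPM was as large as its mean of 62.4 CPM, and single libraries ran from 3.05 to 312.5 CPM. The SD of a gene relative to its mean had a median of 1.13 over the 370 and ran from 0.355, for the tenth most abundant gene on chromosome 17 (15259623 to 15259823), to 2.72.

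**Figure D1:**
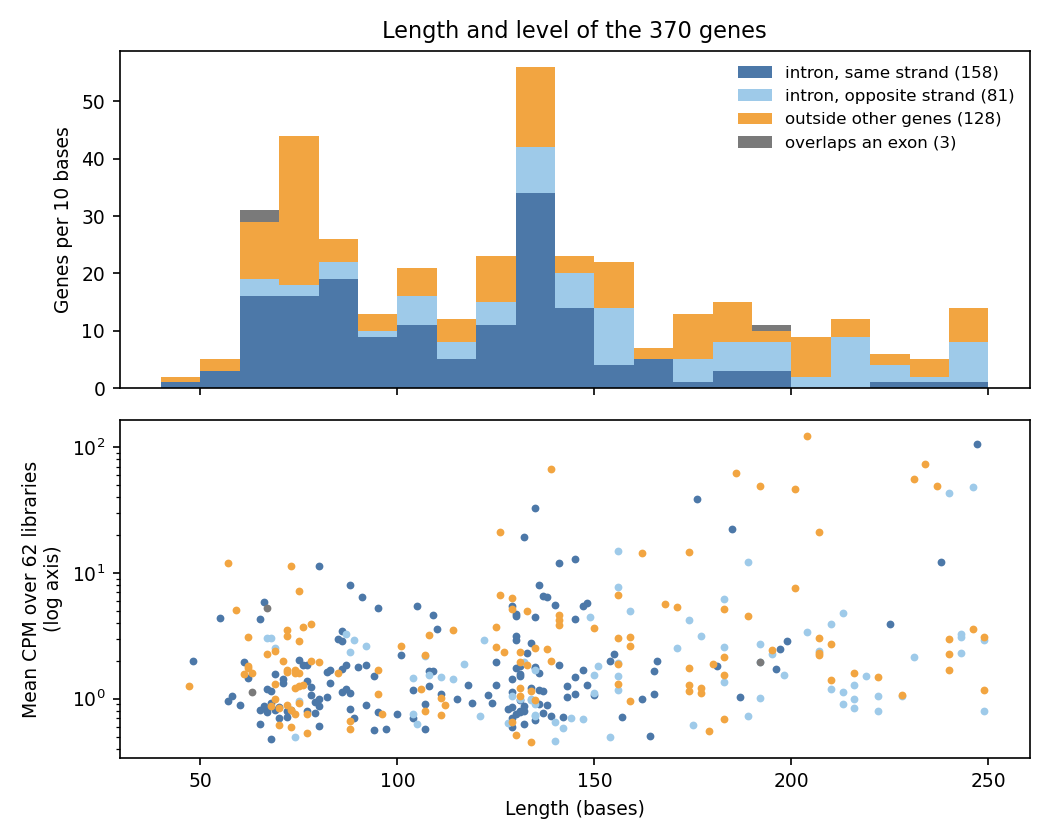
Upper panel: number of the 370 genes per 10 bases of length, stacked by place relative to other genes (158 in an intron on the same strand, 81 in an intron on the opposite strand, 128 outside other genes, 3 overlapping an exon). Lower panel: mean CPM over 62 libraries (log axis) against length, 1 point per gene in the same colours. Most points lie under 2 CPM. The 2 highest points are genes over 150 bases, and some shorter genes also reach high levels.

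Detection and the share of counts held differed by place and by length. Of the 370, 158 lie in an intron of a gene on the same strand and 81 in an intron of a gene on the opposite strand, while 128 lie outside other genes and 3 overlap an exon. The condition on counts kept 19.1% of the 828 small genes in same-strand introns, 14.2% of the 569 in opposite-strand introns and 9.09% of the 1408 outside genes. It kept 2.655% of the 113 that overlap an exon. The 128 outside genes nevertheless held 51.3% of the counts. By length, the condition kept 16.6% of the small genes of up to 100 bases, 8.10% of those of 101 to 150 bases and 22.96% of the longer ones, in classes chosen after the values were seen. The 110 genes over 150 bases held 59.8% of the counts, against 25.5% for the 138 genes of 101 to 150 bases and 14.6% for the 122 shorter ones. Divided by length, the median level was 18.05 CPM per kilobase in genes of up to 100 bases, 11.4 in those of 101 to 150 bases and 11.9 in the longer ones. A read was 150 nt long, so the shorter classes hold genes no longer than 1 read, which these values do not correct for.

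The counts of the small genes were less often even than those of other genes. Because each read of a pair was counted, a pair that lies wholly in a gene adds 2 to its count, and an odd count needs a read whose mate was not counted there. The other genes here are those on chromosomes 1 to 38 outside the 2918 small single-exon genes, detected or not. Among counts from 1 to 20, the median library had 83.6% even values in the 370 genes and 90.1% in the other genes. The lower value was in the 370 genes in 60 of 62 libraries. Even values made up 75.3% in genes of up to 100 bases, 83.5% in those of 101 to 150 bases and 87.5% in the longer ones. In the small genes the median was 86.0% in untreated and 78.6% in surgical libraries, and in the other genes 91.8% and 87.2%. What this difference contributes to the comparisons of groups was not tested.

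Levels of the small genes and of the hosts around them were mostly weakly related. For 155 genes within 1 same-strand host (130 hosts), the correlation of log2 CPM with the host over 62 libraries was positive in 142, with a median r of 0.20 and a range from -0.29 to 0.72. These values are descriptions; the points share libraries and depth. The highest r belonged to ENSCAFG00000043953 (chromosome 5, 46090388 to 46090467, 80 bases) in ENSCAFG00000018635, followed by r = 0.61 for ENSCAFG00000046226 (chromosome 23, 15095190 to 15095277, 88 bases) in ENSCAFG00000005464. They lie 41677 and 41101 bases from the nearest exon of any other gene, and per kilobase of exon their mean levels were 399.4% and 155% of the host's. The lowest r belonged to ENSCAFG00000021808 (chromosome 34, 19358727 to 19358868) and, at -0.21, to ENSCAFG00000025751 (chromosome 21, 7030017 to 7030086). Both are rare, at 0.718 and 0.861 CPM, and lie 27 and 88 bases from the nearest exon of any other gene. Per kilobase, the median small gene reached 45.1% of its host's level and 38 of 155 exceeded it. These values divide CPM by length, and a read of 150 nt was longer than many of the small genes, including those of 80 and 88 bases. A read that only partly overlaps such a gene may be counted in full, which was not corrected for. The percentages therefore do not show that a small gene was more abundant than its host. In the 21 of the 155 genes with a mean of at least 5 CPM, all r were above 0 with a median of 0.26. Unspliced host RNA and a small gene within it on the same strand give reads that cannot be told apart in these counts.

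Some of the small genes lie together. Joined wherever the next one was within 10000 bases, they formed 12 groups of 3 or more with 54 genes, 19 pairs and 278 single genes. The group with the most genes was on chromosome 21 (7019136 to 7030355), with 10 genes of 70 to 139 bases on both strands and a summed mean of 54.8 CPM (23.3 to 140.8 CPM). A group of 4 on chromosome 34 (19356118 to 19358868) reached 59.7 CPM (14.5 to 143.9 CPM), all within introns of a host. A group of 6 on chromosome 7 (25363105 to 25365836) had 8.83 CPM.

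The 12 genes of 3 neighbouring groups on chromosome 8 (69154971 to 69225912, 62 to 78 bases, all on 1 strand) moved together from tumour to tumour. Their summed level was 0 in 1 untreated library, had a median of 18.2 CPM and reached 161.3 CPM in SxRT replicate 6 and 115.9 CPM in Sx replicate 6. All 66 pairs among the 12 genes had a positive correlation over 62 libraries (median r 0.58, range 0.30 to 0.74), against a median r of 0.05 over all 68265 pairs of the 370 genes. Without these 2 libraries 66 of the 66 stayed positive, with a median r of 0.51 (lowest 0.23). The summed levels of the 3 groups were correlated with each other at r = 0.65 to 0.86, and pairs of groups on different chromosomes at -0.34 to 0.41 (63 pairs). In untreated dogs the sum of the 12 had a lowest value of 0 CPM, a median of 22.5 CPM and a highest value of 63.8 CPM. In Sx dogs it was 0.208, 3.66 and 115.9 CPM, in SxRT dogs 2.20, 21.6 and 161.3 CPM, and over both 5.92 CPM at the median. In steroid-treated dogs it was 1.38, 26.96 and 45.01 CPM, and the 3 anti-epileptic dogs had 9.66, 23.5 and 47.2 CPM and the 3 RT dogs 2.84, 17.7 and 65.4 CPM. The groups overlapped over most of their range. None of the 12 passed the test between surgical and untreated dogs (fitted log2 changes from -0.15 to 0.57, smallest edgeR adjusted p 0.644). Of all small genes tested 4.48% passed, and of all genes tested 16.8%. The region was singled out after its values were seen.

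**Figure D2:**
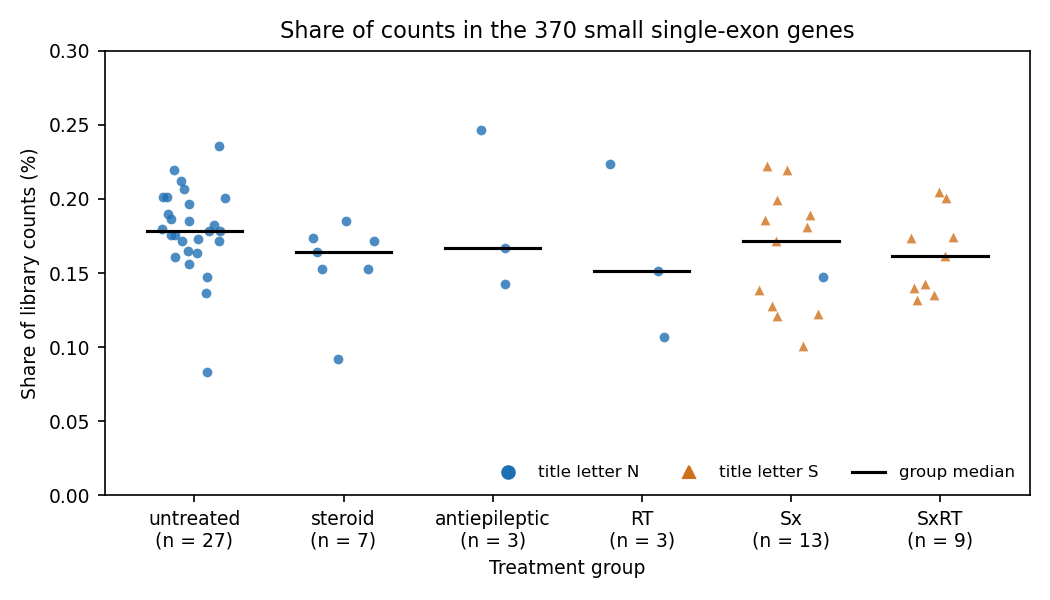
Share of each library's counts that fell in the 370 genes (percent, axis from 0), 1 point per dog by treatment group, coloured and shaped by title letter, with the group median as a bar. All groups overlap, with medians of 0.178% in untreated, 0.164% in steroid, 0.167% in antiepileptic, 0.151% in RT, 0.172% in Sx and 0.161% in SxRT dogs.

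The share of counts in the small genes overlapped between all treatment groups. Untreated libraries ran from 0.0834% to 0.236% with a median of 0.178%. Sx libraries ran from 0.101% to 0.222% (median 0.172%), and SxRT libraries from 0.132% to 0.205% (median 0.161%). Of the 22 surgical libraries, 8 lay above the untreated median. Steroid libraries ran from 0.0919% to 0.185% (median 0.164%), with 1 of 7 above the untreated median. The 3 anti-epileptic dogs had 0.142%, 0.167% and 0.246%. The 3 RT dogs had 0.107%, 0.151% and 0.223%, so each of these small groups covered much of the untreated range. By title letter, N libraries had a median of 0.174% and S libraries 0.172%, with 9 of 21 S libraries above the N median. No test was made on this share.

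The share went down as the library total went up. Over the 62 libraries it was correlated with the total at r = -0.74 (Spearman rho -0.77), at -0.74 again without the 2 totals farthest from the median, at -0.81 within untreated libraries (-0.60 without 2) and at -0.71 within surgical ones. The total is the denominator of the share, so the measures are not independent. The share also fell with the mitochondrial percentage (r = -0.60), and the 2 lowest shares, in untreated replicate 12 and steroid replicate 5, were in the libraries with 46.5% and 46.7% mitochondrial counts. As a share of counts on chromosomes 1 to 38 only, the median was 0.205% and the correlation with the library total was -0.65. On that scale untreated replicate 12 had 0.162% and steroid replicate 5 had 0.189%, and the lowest value was 0.112% in Sx replicate 12.

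With title number the share had r = -0.24 (rho -0.26; -0.15 without the 2 farthest numbers), -0.10 within untreated libraries and -0.39 within surgical ones. The lowest median belonged to number 22, whose 3 libraries, all S, had 0.101%, 0.128% and 0.135%. Number 21 had 0.144% (4 libraries), number 19 had 0.200% (3 libraries), and numbers 11 to 18 had medians between 0.166% and 0.189%. Library totals rose with title number (r = 0.48), and number 22 also had the highest median total, 8641108 counts. How much of the relation with title number belongs to the total was not tested.

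**Figure D3:**
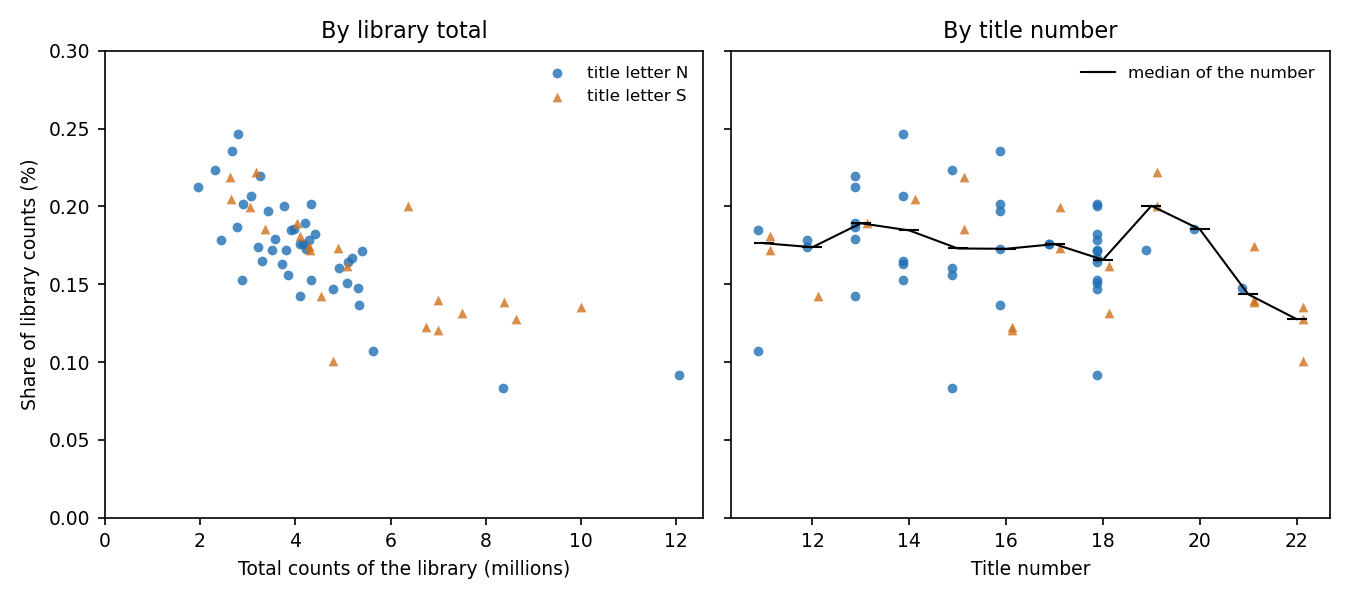
Share of counts in the 370 genes (percent, axis from 0) against the library total (left; axis in units of 1000000 counts) and against the title number (right), 1 point per library, blue circles for N and orange triangles for S; the black line joins the median of each number. The share falls with the total (r = -0.74), and the lowest median by number is 0.128% at 22.

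Between surgical and untreated dogs, 16 small genes differed: 4 were higher and 12 lower in surgical tumours, and in each gene named below single libraries of both groups overlapped. The test was edgeR's quasi-likelihood test over all genes, with Benjamini-Hochberg adjusted p under 0.05. It covered 357 of the 370 genes, and the other 13 did not pass the filter on low counts. The 16 were 4.48% of those tested, against 16.8% of all genes tested (10.4% lower and 6.37% higher). The median fitted log2 change was 0.01 in the small genes and -0.02 in all genes. The median standard error was 0.56 in the small genes and 0.31 in all genes, so a change of the same size was less likely to pass in a small gene. DESeq2 called 25 small genes and 19.3% of all genes.

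The largest increase was in ENSCAFG00000020576, 62 bases in an intron of ENSCAFG00000023549 on chromosome 1 (71677608 to 71677669, minus strand). Untreated libraries ran from 0 to 2.44 CPM with a median of 0.185 CPM and 13 of 27 at 0, while surgical libraries ran from 0.409 to 13.3 CPM with a median of 2.26 CPM and none at 0. All 22 surgical libraries lay above the untreated median, and the fitted log2 change was 2.79 (SE 0.57, edgeR adjusted p 0.000604). The 7 steroid libraries had a median of 0 CPM and a highest value of 0.923 CPM, and 2 of 3 anti-epileptic and 2 of 3 RT libraries were at 0. Its host changed by 0.49 on the log2 scale (adjusted p 0.0126, edgeR).

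ENSCAFG00000020548, 59 bases outside other genes on chromosome 31 (13258782 to 13258840), was higher too. Its untreated values ran from 0 to 12.01 CPM (median 1.38 CPM) and its surgical values from 0 to 35.3 CPM (median 7.98 CPM). The change was 2.16 (SE 0.61, edgeR adjusted p 0.0096), and 20 of 22 surgical libraries exceeded the untreated median. The other 2 increases were 57 bases on chromosome 7 (34314838 to 34314894), at 2.68, and 92 bases on chromosome 9 (34340533 to 34340624), at 2.15, both above the untreated median in 22 of 22 surgical libraries. For the chromosome 7 gene the untreated median was a log2 CPM of -1.16, the value of a library without counts. There, 22 of 22 says only that each surgical library had a count. The part of the higher totals of surgical libraries in this was not tested.

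The largest decreases were in genes with no count in most surgical libraries. ENSCAFG00000026864 (131 bases, outside other genes on chromosome 1, 114742639 to 114742769) ran from 0 to 23.4 CPM in untreated libraries, with a median of 1.38 CPM and 8 of 27 at 0. In surgical libraries it was at 0 in 16 of 22 and reached 3.05 CPM. By edgeR the fitted log2 change was -4.05 (SE 0.88, adjusted p 0.00123), and 1 surgical library exceeded the untreated median. The 3 RT dogs had 2.84, 3.14 and 8.61 CPM, all above the untreated median.

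ENSCAFG00000045896 (189 bases, outside other genes on chromosome 7, 24127545 to 24127733) was at 0 in 14 of 22 surgical libraries and reached 5.08 CPM there, against a median of 2.69 CPM and a highest value of 18.2 CPM in untreated libraries. Its change was -3.52 (SE 0.78, edgeR adjusted p 0.0014). The only surgical library above the untreated median, at 5.08 CPM, was Sx replicate 1, the surgical dog with an N name. It was well counted in the other treated dogs: the steroid median was 10.8 CPM, the anti-epileptic dogs had 7.16, 7.51 and 26.04 CPM, and the RT dogs 0, 12.6 and 16.4 CPM. None of those comparisons passed the test for this gene.

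**Figure D4:**
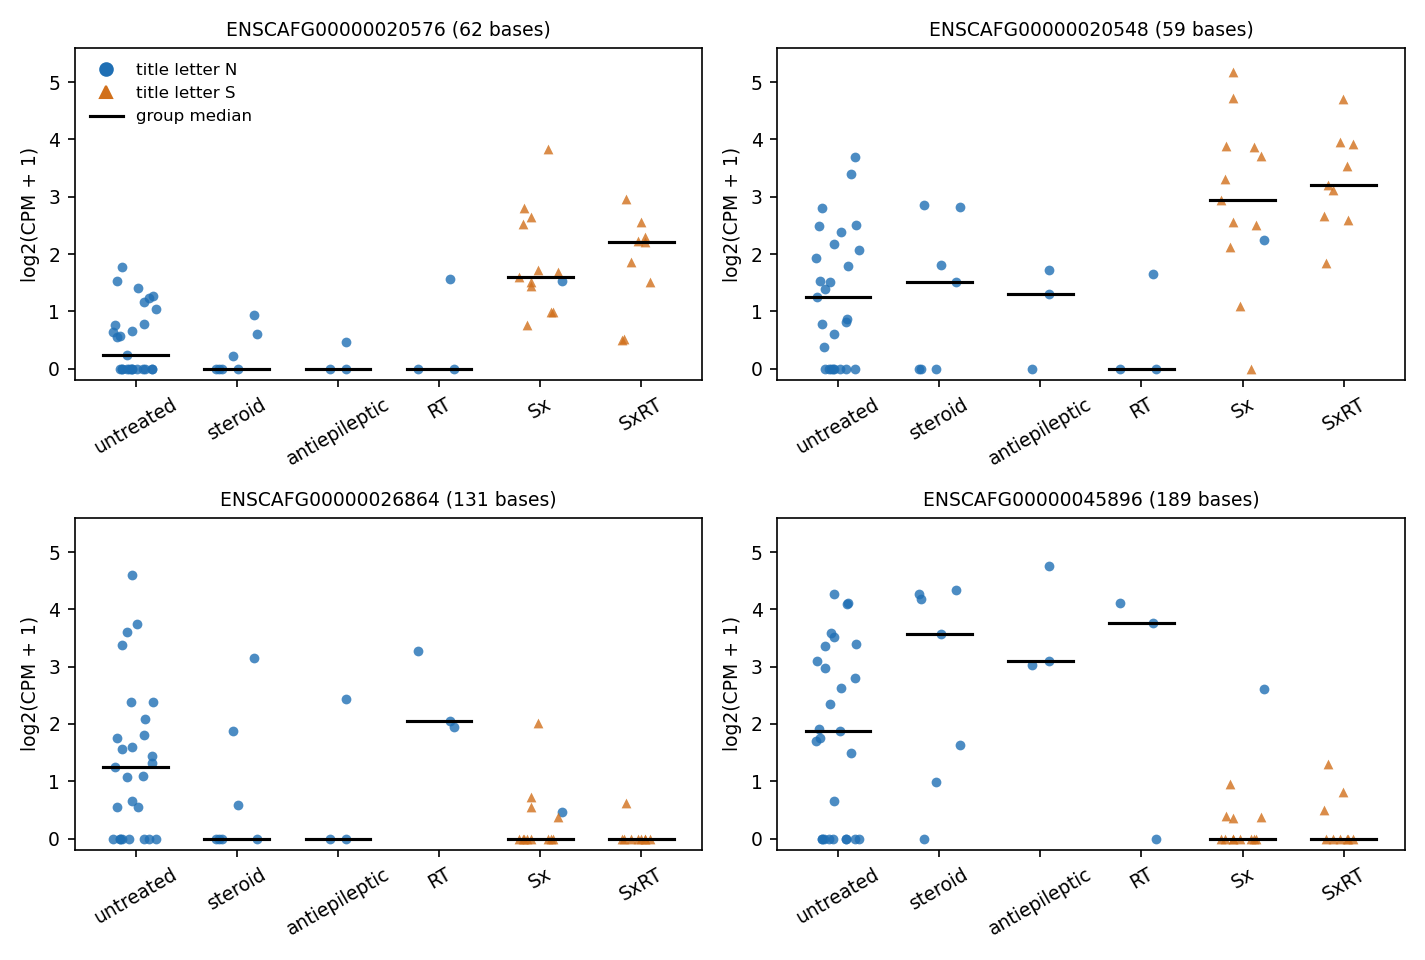
log2(CPM + 1) of 4 genes that differed between surgical and untreated dogs (the 2 higher and the 2 lower ones with the largest fitted changes among genes whose mean log2 CPM was not below 0), 1 point per library by treatment group, coloured and shaped by title letter, with the group median as a bar. In the upper panels the Sx and SxRT medians lie above the untreated median, and in the lower panels they lie at 0; single libraries of the groups overlap.

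The most abundant genes changed less but with more precision. The chromosome 12 gene had an untreated median of 127.1 CPM (16.9 to 609.5 CPM) and a surgical median of 80.75 CPM (21.1 to 275.5 CPM), a fitted log2 change of -0.86 (SE 0.21, edgeR adjusted p 0.00385) with 3 of 22 surgical libraries above the untreated median. The chromosome 15 gene had medians of 116.7 CPM and 79.05 CPM and a change of -0.55 (SE 0.17, edgeR adjusted p 0.0197), while its host's fitted change was 0.07 (adjusted p 0.771). The next 4 by abundance did not pass: ENSCAFG00000041666 at -0.20, ENSCAFG00000048401 at 0.23, ENSCAFG00000047167 at -0.43 and ENSCAFG00000003361 at -0.08, with edgeR adjusted p between 0.423 and 0.831. For ENSCAFG00000047167 the standard error of 0.47 leaves room for a change of either sign. Its medians were 52.9 CPM in untreated and 18.2 CPM in surgical dogs (9.05 CPM in Sx and 34.2 CPM in SxRT). The mean log2 CPM was 5.55 in untreated and 4.38 in surgical dogs, farther apart than the fitted change. Single libraries overlapped, from 7.69 to 312.5 CPM in untreated and from 3.05 to 207.2 CPM in surgical dogs.

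The other lower genes were 181 bases on chromosome 19 (1171521 to 1171701, change -2.65), 141 bases on chromosome 7 (37488050 to 37488190, -2.42), 67 bases on chromosome 3 (35753285 to 35753351, -1.67), 174 bases on chromosome 3 (19946096 to 19946269, -1.20), 137 bases on chromosome 7 (42982639 to 42982775, -1.005), 183 bases on chromosome 29 (321066 to 321248, -0.82), 135 bases on chromosome 4 (4786273 to 4786407, -0.61) and 126 bases on chromosome 21 (7022772 to 7022897, -0.60). The last belongs to the 10-gene group on chromosome 21 and was the only 1 of the 54 grouped genes to pass. Of all small genes tested 4.48% passed, and of all genes tested 16.8%. Of the 6 changed genes with a same-strand host, only the chromosome 1 gene had a host that changed as well.

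**Figure D5:**
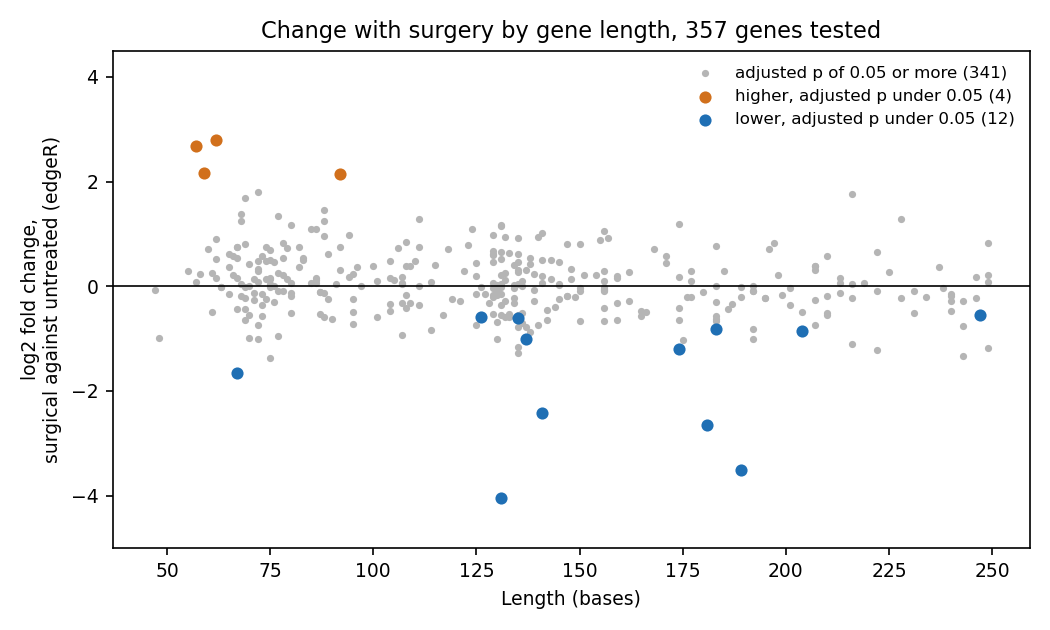
Fitted log2 change between surgical and untreated dogs (edgeR) against length in bases for the 357 genes tested; orange points are the 4 higher and blue points the 12 lower genes with an adjusted p under 0.05, grey points the rest. All 4 orange points lie at 57 to 92 bases, and 11 of 12 blue points lie above 100 bases.

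Among the genes that passed by surgery, the higher ones were shorter than most of the lower ones, and no test of length was made. All 4 higher genes were 57 to 92 bases long, and 11 of the 12 lower ones were over 100 bases (67 to 247 bases in all). By title letter the split was less clear, since 2 of the 5 higher genes were 135 and 141 bases long. The median fitted log2 change was 0.16 in genes of up to 100 bases, of which 63.6% had a positive value, 0.01 in those of 101 to 150 bases (50.8% positive) and -0.13 in the longer ones (38.3% positive). Surgical libraries also had fewer even counts in small genes (medians 78.6% and 86.0%), higher totals (medians 4843122 and 3850875 counts) and fewer mitochondrial counts (9.57% and 12.8%) than untreated ones. The part of these measures in the changes was not tested. By place, the median was 0.08 in same-strand introns, -0.21 in opposite-strand introns and 0.01 outside genes.

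A stretch of chromosome 3 with 6 small genes on 1 strand (35711672 to 35833998, 61 to 95 bases), also singled out after its values were seen, held the 67-base gene named above. All 6 had a negative fitted change with surgery, from -1.67 to -0.25, and 1 passed. Of all small genes tested 51.3% had a positive change, and 16.8% of all genes tested passed. Their summed level ran from 2.51 to 44.1 CPM in untreated dogs with a median of 9.09 CPM, and from 0 to 21.9 CPM in surgical dogs with a median of 5.71 CPM and 2 libraries at 0, so the groups overlapped. The medians were 16.7 CPM in steroid-treated, 10.02 CPM in anti-epileptic and 16.8 CPM in RT dogs. All 15 pairs of the 6 had a positive correlation, with a median r of 0.23. By title letter, 2 of the 6 had enough counts to be tested and both passed as lower in S libraries, as did 15.5% of all genes tested.

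The title letter gave much the same picture, since it is nearly the same split of the dogs. Between S and N libraries, 14 of 150 small genes tested differed, 5 higher and 9 lower in S, which is 9.33% against 27.3% of all genes tested (11.7% higher and 15.5% lower). DESeq2 called 20, and 31.2% of all genes. The filter by letter asks for counts in more libraries, so 220 were not tested. Both lists held 10 genes in common, 4 of the genes that differed by surgery were not tested by letter, and no gene changed direction. ENSCAFG00000045896 had the largest decrease, a log2 change of -4.75 (SE 0.74, adjusted p 2.5e-06 by edgeR), with 0 of 21 S libraries above the N median. The 141-base gene on chromosome 7 followed with -2.61 (SE 0.57, adjusted p 0.000383), also with 0 of 21. The largest increases were in the 92-base gene on chromosome 9, at 2.42 (SE 0.55, adjusted p 0.000593) in 21 of 21, and in ENSCAFG00000020548, at 2.29 (SE 0.52, adjusted p 0.000626) in 19 of 21. Genes that passed by letter but not by surgery were 72 bases on chromosome 3 (35833927), at -1.11, and 3 higher ones: 88 bases on chromosome 5 (12097658) at 1.38, 141 bases on chromosome 5 (32715835) at 1.04 and 135 bases on chromosome 17 (38972324) at 0.82.

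Within ranges of the title number, which hold fewer dogs, fewer small genes passed. With numbers 11 to 16 alone (18 untreated and 9 surgical dogs) 0 small genes passed between surgical and untreated dogs, and of all genes 0% passed, and with numbers 17 to 22 alone (9 and 13 dogs) 1 passed, against 0.364% of all genes. The fitted log2 change of ENSCAFG00000020576 was 2.32 with numbers 11 to 16 and 2.66 with numbers 17 to 22. In the same order, that of ENSCAFG00000020548 was 2.73 and 1.00, that of ENSCAFG00000026864 -5.05 and -3.23 and that of ENSCAFG00000045896 -4.23 and -3.26. For the abundant genes on chromosomes 12 and 15 it was -1.10 and -0.47, and -0.51 and -0.76. These genes were chosen on the same libraries, which largely fixes the sign in each range. By letter, 3 small genes passed with numbers 11 to 16 (5.31% of all genes) and 4 with numbers 17 to 22 (15.8%).

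No small gene passed in the other treatment comparisons or with title number. Against untreated dogs, 0 of 357 passed for the steroid (0.256% of all genes passed, and 0.0109% without steroid replicate 5), for the anti-epileptic drug alone (0.00544%) and for RT alone (0.435%). Between SxRT and Sx dogs 0 passed (0.0109% of all genes). With each step of the title number, 0 passed (0.00544% of all genes). At an unadjusted edgeR p under 0.05 the small genes numbered 10 for the steroid (2.80%, against 10.97% of all genes), 3 for SxRT against Sx (0.840%, against 5.11%) and 9 for title number (2.52%, against 6.09%). They numbered 20 for the anti-epileptic drug (5.602%, against 4.61%) and 42 for RT (11.8%, against 7.85%), each with 3 dogs in the group. DESeq2 called 0 small genes in each, and of all genes 0.844% for the steroid, 0.147% for the anti-epileptic drug, 0.305% for RT, 0.223% for SxRT and 0.00544% for title number. The median standard error of a small gene was 1.22 for RT and 1.19 for the anti-epileptic drug on the log2 scale, so only large changes could pass there; it was 0.82 for the steroid and 0.84 between SxRT and Sx. Nor did the smallest adjusted p come near 0.05: it was 0.151 for RT, 0.217 for the steroid, 0.661 for title number, 0.898 for SxRT and 0.973 for the anti-epileptic drug (edgeR).

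A few libraries held many of the extremes. Untreated replicates 8 and 4 and Sx replicate 6 had the highest level of 31, 29 and 31 small genes, 91 of 370 in all. Their totals were 3064604, 1967061 and 2623994 counts, all below the median of 4190135. Between surgical and untreated dogs, 14 small genes passed without untreated replicate 8 (15.3% of all genes), 17 without untreated replicate 4 (16.9%) and 18 without Sx replicate 6 (17.1%). Without Sx replicate 1, the surgical dog with an N name, 19 passed (19.3% of all genes).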

How the data were processed

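With featureCounts 2.0.4, per the file headers, the authors obtained raw read counts over the exons of Ensembl release 100 on CanFam3.1, and deposited them for 62 libraries of paired 150 nt reads. Each read of a pair was counted, strand was ignored, and only primary alignments were kept, so reads shared by near-identical copies, common among small RNA genes, may be placed on any copy. Per the submitters' processing notes, STAR, featureCounts and DESeq2 were used; the version of STAR is not given in the sources used here. Groups came from the treatment label, and p-values set the difference of groups against the spread between dogs. The members and lists were chosen with earlier results of these data known.

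CPM is a gene's counts per 1000000 counts of its library. Counts were tested with edgeR 4.0.16 (R 4.3.3): filterByExpr, TMM (factors 0.557 to 1.24), 1 quasi-likelihood fit of 62 libraries with terms for sex, neuter status and the 6 groups, and Benjamini-Hochberg adjustment over all 18370 genes tested. A surgical change averages the Sx and SxRT coefficients and subtracts untreated. The standard error (SE) of a log2 change was computed as its absolute value divided by the square root of edgeR's F statistic. It is approximate, above all for genes without counts in many libraries. The letter fit replaced the groups by the title letter (14503 genes), and title number was added as a slope. The fit of surgical against untreated dogs was tried on simulated data. Of simulated log2 changes of size 1, 41 of 99 passed, and of size 2, 80 of 99. Of unchanged genes, 18 of 17695 passed. The changed genes were drawn from those with an average log2 CPM above 0, so the rarer small genes were not covered. Log2 CPM used TMM and a prior count of 2. No value over the whole set of small genes was tested. Alternatives were size factors, no filter, library sizes without mitochondrial genes, halved counts, ranges of title number, subsets of libraries and DESeq2 1.42.0; leaving out single Sx, untreated or steroid libraries was chosen after seeing the data. Named genes were the 6 with the highest mean CPM; per comparison up to 2 higher and 2 lower with adjusted p under 0.05, a mean log2 CPM not below 0 and medians at least 0.5 apart; the 2 highest and 2 lowest r to a host; and those at the limits. Other changed genes were listed after their values were seen. Length classes and the regions on chromosomes 3 and 8 were also chosen then.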

Additional observations from a re-analysis of the deposited data

Results flagged for a closer look

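Within the steroid group, steroid replicate 5 had a share of counts in the small genes of 0.0919%, below the other 6 libraries, which lay between 0.152% and 0.185%. As a share of the counts on chromosomes 1 to 38 it did not stand apart, at 0.189% against 0.189% to 0.224% in the others. It was also the deepest library, with 12063982 counts, of which 46.7% were mitochondrial. Without it, as with it, 0 small genes passed between steroid-treated and untreated dogs, while over all genes the number fell from 47 to 2. Within the SxRT group, ENSCAFG00000026864 had a log2 CPM of 0.057 in SxRT replicate 5, while the other 8 libraries had no count and a log2 CPM of -1.16; the level in that library was 0.533 CPM. A sample far from the others of its group was looked for in 34 sets of values, and chance alone marks about 1 in 20.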

How the results depend on the processing

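The 16 genes that differed between surgical and untreated dogs had the same sign in every alternative in which they could be fitted, which their choice on the same libraries largely fixes. Their number moved to 25 with DESeq2 (9 higher, 16 lower, against 19.3% of all genes), to 0 with title numbers 11 to 16 only and to 1 with title numbers 17 to 22 only, which hold fewer dogs. Leaving out 1 of 4 libraries gave 14 to 19, and the other alternatives gave 14 to 17. By letter 14 genes differed, against 3 with numbers 11 to 16 only (2 of them among the 14) and 4 with numbers 17 to 22 only (3 among the 14); the other alternatives gave 12 to 20. In both ranges, each of the 4 genes named for their surgical change lost its call (highest edgeR adjusted p 0.576), as did the genes on chromosomes 12 and 15. For the anti-epileptic drug and RT, leaving out each library in turn gave 0, as did every alternative for the comparisons with 0. The median share of counts ran from 0.161%, without the most abundant gene, to 0.205%, over chromosomes 1 to 38. No paired analysis was possible because the replicate numbers follow the order of deposit and pair no dogs. With halved counts 223 of the small genes passed the filter and 17 differed by surgery, 15 of them among the 16.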
